A study of Mus musculus with 6 samples.

Results

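The genes described here build and control the mitotic spindle and the separation of chromosomes. They were given as a fixed list of 53 gene symbols, and each was represented by its brightest probe on the array. Of the 53, 51 had a probe in the supplied annotation, among 19057 genes measured in all, and 2 (Ccnb1 and Mki67) had no probe under their name there and were not analysed here. The list was not chosen by a threshold on the measured values, but earlier results of these arrays were known when it was drawn up.

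RNA was measured in cultured embryonic fibroblasts (MEFs), cells that grow out of a dissociated mouse embryo, of strain C57Bl/6NCr. One group was Lasp1+/+ (wild type) and the other Lasp1-/- (Lasp1 knock out), with no other allele or agent named in the labels. Each had 3 Illumina bead arrays, numbered 1 to 3. The sources used here do not give how the allele was made, the passage or density of the cultures, or whether each array stands for its own culture or embryo, so the p-values below rest on a spread between arrays that may be technical.

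A cell enters mitosis when the kinase CDK1, bound to a cyclin, is switched on by CDC25 phosphatases, and Polo and Aurora kinases then drive spindle assembly. The checkpoint proteins hold back the anaphase-promoting complex (APC/C) until every kinetochore, the protein plate on a centromere, is attached to microtubules. The APC/C then marks securin and cyclin B for destruction, separase cuts the cohesin rings, and the chromosomes move apart. Most of these genes are transcribed only late in the cycle of a growing cell, and their RNA is commonly read as a sign of how many cells in a culture are dividing.

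Values are probe intensities on the deposited linear scale, in which every array has a median of 1000, and differences are knockout minus wild type on the log2 scale with the moderated standard error (SE) of limma. A gene was called at an adjusted p under 0.05 (limma, Benjamini-Hochberg over all 19057 genes). The targeted gene fell in every knockout array: the mean Lasp1 intensity was 144104 ± 7634 (SD, n = 3) against 50898 ± 1072 (SD, n = 3), a log2 difference of -1.50 ± 0.07 (SE; limma adjusted p = 1.17e-05; exact two-sided permutation p = 0.1, the smallest that 3 arrays against 3 allow). The Lasp1 probe still read far above the array median of 1000 in knockout, and what gave that signal was not tested. The 13 fibroblast markers, of which Dcn, Lum, Thy1, Col1a2 and Pdgfrb were called lower, all lay above 991, the median of all probe means and here the mark of a dim gene, and their summed intensity was 1255880 to 1456330 in wild type and 1028290 to 1105710 in knockout. Sums of markers of other cell types also differed: the ranges were 26080 to 31032 and 13482 to 14104 for 10 epithelial genes (6 above the dim mark), 59741 to 73682 and 25595 to 31030 for 7 adipocyte genes (5 above), 14603 to 15887 and 25018 to 25810 for 7 muscle genes (6 above), and 11301 to 12444 and 14136 to 14806 for 8 macrophage and leukocyte genes (6 above). Called genes among these were Krt14 (log2 difference -2.59), Krt8 (-0.71), Krt19 (-0.45), Adipoq (-2.02), Lpl (-1.49) and Lep (-0.29), which were lower, and Acta1 (1.52), Actc1 (0.61) and Lyz2 (0.56), which were higher. Of the epithelial differences 5 were negative and 5 positive. Cldn4 (0.31) and Krt18 (0.18) were higher in every knockout array without passing. Of the adipocyte differences 6 were negative and 1 positive, and Pparg, Fabp4 and Plin1 overlapped between genotypes. Single bright probes made up much of the shifts in these sums: Krt14 (mean 15557 in wild type, 2565 in knockout), Lpl (55330 and 19739) and Acta1 (4546 and 12873). Sums over 9 endothelial genes (13894 to 15502 and 13883 to 14639), 8 neural genes (13442 to 15638 and 14879 to 17439), 8 pluripotent genes (8049 to 8307 and 7960 to 8156) and 4 erythroid genes (3801 to 4103 and 3787 to 3984) overlapped between genotypes, but the endothelial list held Emcn, called higher (0.62), and Eng, called lower (-0.52), and the neural list Nes, called higher (1.32), and Sox10, called lower (-0.60). In their mean over all arrays 4 of these 9 endothelial, 4 of 8 neural, 6 of 8 pluripotent and 2 of 4 erythroid genes exceeded the dim mark. The lists thus held bright members that changed. Their members Epcam, Krt5, Ptprc, Itgam, Cdh5, Vwf, Myod1, Sox2 and Nanog had means under the dim mark in both genotypes. Others of the same lists, such as Cdh1, Cldn7, Csf1r, Cd14, Tek, Des, Map2 and Pou5f1, read above it. Whether the makeup of the cultures has a part in the results on mitosis genes was not tested, and in bulk RNA fewer dividing cells and less RNA per cell cannot be told apart.

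Of 51 measured mitosis genes, limma called 15 lower and 0 higher in Lasp1 knockout fibroblasts, and 36 did not pass. Each of the 15 fell by less than 2-fold. Among all genes 4.08% were called lower and 2.19% higher, and with quantile normalization 5.68% and 5.29%, with 22 members lower and 0 higher. At an unadjusted p under 0.05, 27 members were lower and 0 higher, beside 13.0% and 5.66% of all genes. The 15 falls ran from -0.34 (Cdc25c, an activating phosphatase of CDK1) to -0.67 (Kif11, the kinesin that pushes spindle poles apart), or from 1.26-fold to 1.59-fold. They comprised Cdk1, Cdc25c, the kinases Aurka, Aurkb and Plk1, the checkpoint genes Bub1b and Mad2l1, the kinetochore genes Ndc80 and Spc25, the kinesins Kif11, Kif22, Kif4 and Kif2c, the spindle midzone gene Prc1 and the topoisomerase Top2a. The median log2 difference of the 51 was -0.29 (quartiles -0.45 and -0.09), beside -0.02 for all genes (quartiles -0.12 and 0.05). Of the 51, 46 differences were negative (90.2%), as were 58.0% of all genes, and 24 lay below -0.3 (47.1%), as did 7.81% of all genes. In 31 of the 51 every knockout array read below every wild-type array, an order found in 14.0% of all genes, and in 0 of them was every knockout array above, as in 7.34% of all genes. Tested among the 11985 genes whose mean over all arrays exceeded the dim mark, 16 of 36 members were called lower by limma, beside 6.43% of those genes. Of these 36 differences 97.2% were negative and 66.7% lay below -0.3, beside 63.1% and 12.4% of the 11985 genes.

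The number of members called lower depended on the arrays and on the background. Leaving out wild type replicate 3 gave 9 calls (1.60% of all genes were then lower), leaving out knockout replicate 2 gave 9 (1.77%) and leaving out knockout replicate 3 gave 5 (1.28%), while array weights gave 25 (12.0%). After normexp background correction 3 were called (Bub1b, Ndc80 and Kif11; 1.66% of all genes), and after subtraction of the 1st percentile limma called 0 (1.32%; 28 members lower at an unadjusted p under 0.05). The sign of all 15 differences held in each of these.

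**Figure D1:**
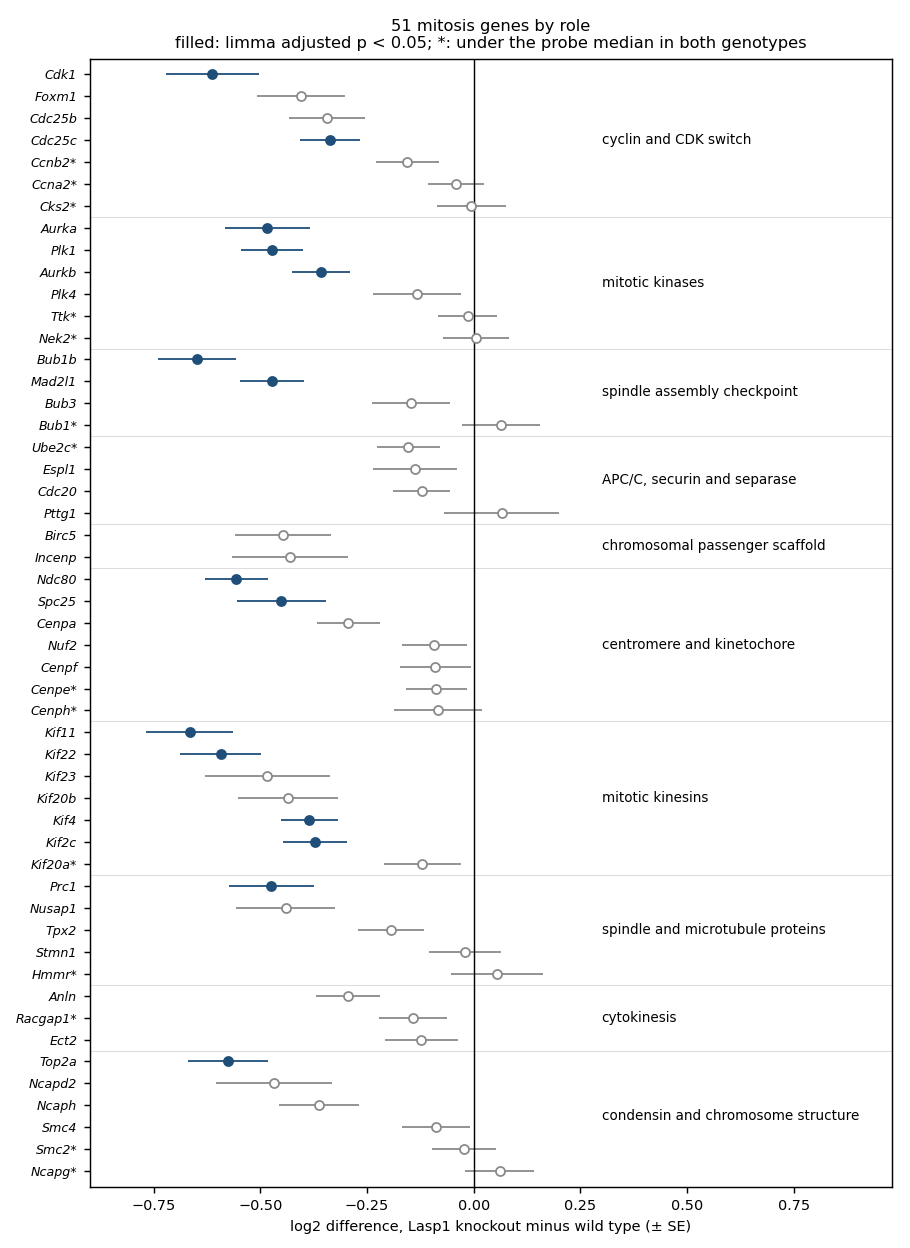
Log2 difference (knockout minus wild type, horizontal axis) of 51 mitosis genes, 1 point per gene with its SE, ordered within roles; filled points passed limma at an adjusted p under 0.05 and an asterisk marks genes below the dim mark (991) in both genotypes. Points with large negative values occur in most roles, and the genes with an asterisk lie between -0.16 and 0.06.

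Promoters of late cell cycle genes are known for the cell cycle homology region (CHR), a short element read by the DREAM and MMB complexes, often next to CCAAT boxes bound by NF-Y. RefSeq promoter windows of assembly GRCm38.p6, from 250 bases before to 50 bases after the start site, matched 44 of the 53 listed genes by symbol, and 9 had no entry. The CHR was searched as TTTGAA and as the related forms that read TTCGAA or, without a G or C, TTTAAA. The NF-Y box was searched as CCAAT. Both strands were read, with the first window where a gene has several, and none of these words overlapped another in the windows printed here. A CHR match stood in 36 of 44 windows (81.8%), beside 29% of 27025 genes with a window. TTTGAA alone stood in 30 of the 44 (68.2%, beside 18.1%). A CCAAT match stood in 33 (75%, beside 37.9%), and both kinds in 30 (68.2%, beside 11.5%). The 55 CHR matches had a median first base at -17 from the start, and the 72 CCAAT matches at -65.

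Most members held a CHR match, called or not. A CHR match stood in 12 of 13 called members with a window, in 13 of 17 that were above the dim mark in at least 1 genotype and not called, and in 9 of 12 dim members, and CCAAT matches stood in 10, 9 and 12 of these. Windows of the 6 genes of smallest p among those with a window are shown as examples from the members whose fall was best resolved, with Cdk1, whose kinase starts mitosis, and Ccnb2, a cyclin that binds it and was dim in both genotypes. They are Ndc80 at chr17:71526808-71527107 (minus strand), Bub1b at chr2:118597961-118598260 (plus strand), Kif11 at chr19:37376132-37376431 (plus strand), Plk1 at chr7:122159185-122159484 (plus strand), Mad2l1 at chr6:66534971-66535270 (plus strand), Kif22 at chr7:127042371-127042670 (minus strand), Cdk1 at chr10:69352863-69353162 (minus strand) and Ccnb2 at chr9:70421505-70421804 (minus strand). Each is written 5′ to 3′ on the gene's strand, and capitals mark CHR and CCAAT matches of either strand.
Ndc80: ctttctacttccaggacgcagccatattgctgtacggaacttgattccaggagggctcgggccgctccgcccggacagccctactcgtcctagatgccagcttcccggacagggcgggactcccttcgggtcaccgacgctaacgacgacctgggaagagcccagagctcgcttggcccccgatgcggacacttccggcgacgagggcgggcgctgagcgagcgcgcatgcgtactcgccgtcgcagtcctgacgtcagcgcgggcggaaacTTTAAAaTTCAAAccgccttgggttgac
Bub1b: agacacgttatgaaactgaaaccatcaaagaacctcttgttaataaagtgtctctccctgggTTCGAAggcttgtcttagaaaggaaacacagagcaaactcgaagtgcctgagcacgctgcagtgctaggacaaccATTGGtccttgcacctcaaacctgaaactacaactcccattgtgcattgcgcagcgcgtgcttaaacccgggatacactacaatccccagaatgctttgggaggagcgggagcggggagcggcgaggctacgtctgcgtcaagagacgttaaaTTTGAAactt
Kif11: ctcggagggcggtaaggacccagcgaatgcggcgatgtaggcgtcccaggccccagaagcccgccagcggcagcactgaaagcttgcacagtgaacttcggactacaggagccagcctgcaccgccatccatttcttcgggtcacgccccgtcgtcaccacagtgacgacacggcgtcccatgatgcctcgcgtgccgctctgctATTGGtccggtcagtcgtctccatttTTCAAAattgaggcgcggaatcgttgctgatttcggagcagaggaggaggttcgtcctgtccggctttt
Plk1: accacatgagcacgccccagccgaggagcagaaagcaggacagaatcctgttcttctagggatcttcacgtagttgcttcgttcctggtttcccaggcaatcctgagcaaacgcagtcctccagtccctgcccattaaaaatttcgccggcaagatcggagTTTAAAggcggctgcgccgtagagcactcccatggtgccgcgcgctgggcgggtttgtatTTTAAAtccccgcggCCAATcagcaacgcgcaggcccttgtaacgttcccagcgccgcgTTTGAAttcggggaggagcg
Mad2l1: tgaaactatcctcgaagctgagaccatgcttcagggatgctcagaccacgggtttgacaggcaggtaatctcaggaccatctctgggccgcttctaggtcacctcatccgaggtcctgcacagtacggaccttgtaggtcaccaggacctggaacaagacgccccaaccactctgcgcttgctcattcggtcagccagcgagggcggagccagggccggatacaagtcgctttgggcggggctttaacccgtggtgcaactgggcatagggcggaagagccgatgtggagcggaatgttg
Kif22: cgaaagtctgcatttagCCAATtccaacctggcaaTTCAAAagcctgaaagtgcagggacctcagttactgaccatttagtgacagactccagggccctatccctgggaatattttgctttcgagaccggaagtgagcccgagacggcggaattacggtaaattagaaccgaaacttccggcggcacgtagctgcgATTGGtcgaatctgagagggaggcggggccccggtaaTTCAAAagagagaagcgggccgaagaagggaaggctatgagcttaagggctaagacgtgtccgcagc
Cdk1: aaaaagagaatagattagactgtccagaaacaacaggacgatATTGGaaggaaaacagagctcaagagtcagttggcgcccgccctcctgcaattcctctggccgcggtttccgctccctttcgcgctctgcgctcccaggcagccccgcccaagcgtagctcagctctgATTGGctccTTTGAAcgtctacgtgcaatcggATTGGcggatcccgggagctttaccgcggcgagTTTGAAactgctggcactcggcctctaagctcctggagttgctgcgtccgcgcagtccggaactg
Ccnb2: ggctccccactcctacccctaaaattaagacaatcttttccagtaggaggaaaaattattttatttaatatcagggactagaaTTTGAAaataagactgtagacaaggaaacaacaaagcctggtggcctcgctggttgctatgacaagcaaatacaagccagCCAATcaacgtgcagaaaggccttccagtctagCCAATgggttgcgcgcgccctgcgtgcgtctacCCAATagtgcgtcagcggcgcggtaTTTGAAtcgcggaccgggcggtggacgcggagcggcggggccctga
Ndc80 has 2 CHR matches, beginning 23 and 30 bases after the start, and no CCAAT match, Plk1 has 3 CHR matches, Kif22 has 2 of each, and Cdk1 has 2 CHR and 3 CCAAT matches. Mad2l1, called at -0.47, has no match of either kind in this window, and Ccnb2, not called, has 2 CHR and 3 CCAAT matches. A match is a string of letters and was not measured as a bound site.

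**Figure D2:**
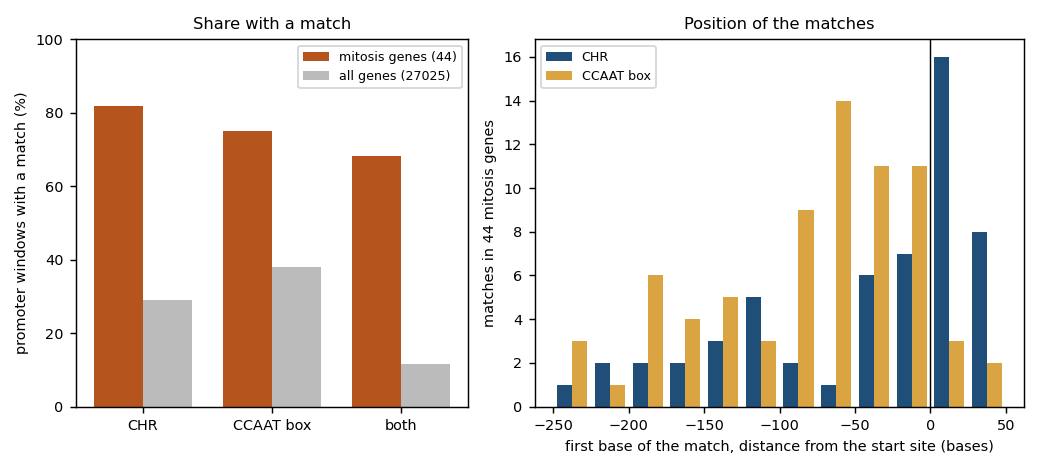
Left, percent of RefSeq promoter windows with a match to the CHR, the CCAAT box or both, for 44 mitosis genes and for all 27025 genes with a window; right, number of CHR and CCAAT matches in the 44 windows by distance from the start site in bins of 25 bases. CHR matches stand in 81.8% of the mitosis genes and 29% of all genes, and are most frequent just after the start, with most CCAAT matches upstream of it.

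The switch into mitosis was represented by Cdk1, its phosphatases and cyclins, and Foxm1, a transcription factor that activates late cell cycle genes. Of 7 measured, 2 were called lower and 5 did not pass, while 4.08% of all genes were called lower. Cdk1 read 18895, 20428 and 21779 in wild type and 15382, 11638 and 13139 in knockout, a log2 difference of -0.61 ± 0.11 (1.53-fold; limma adjusted p = 0.0107). Its knockout arrays all lay below its wild-type arrays, with knockout replicate 1 the nearest to them. Cdc25c read 2806, 2892 and 2756 against 2319, 2147 and 2227 (-0.34 ± 0.07, limma adjusted p = 0.0214), again without overlap. Foxm1 (wild-type mean 4245 ± 327, knockout mean 3215 ± 398, SD, n = 3 each) and Cdc25b (2560 ± 171 and 2020 ± 179) were also separate between genotypes and missed the threshold, with limma adjusted p of 0.0528 and 0.0569. Ccna2, Ccnb2 and Cks2, a small CDK-binding protein, read 833 to 1002 in every array, near the dim mark. At that level Ccnb2 differed by -0.16 (95% interval -0.32 to 0.01), Ccna2 by -0.04 (-0.19 to 0.11) and Cks2 by -0.01 (-0.19 to 0.18). The knockout arrays of Ccnb2 and Ccna2 lay below their wild-type arrays, but no change in these genes was resolved at that signal.

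Of 6 mitotic kinases, 3 were called lower, beside 4.08% of all genes. Plk1, the Polo kinase of mitotic entry and exit, read 20571, 20972 and 19348 in wild type and 15274, 14146 and 14469 in knockout (-0.47 ± 0.07, 1.39-fold, limma adjusted p = 0.00522). The knockout arrays lay close together and well under the wild-type arrays. Aurka, the Aurora kinase of spindle poles, went from 17978 ± 1645 to 12862 ± 1267 (SD, n = 3 each; -0.48 ± 0.10, limma adjusted p = 0.0205). Aurkb, the Aurora kinase of the chromosomal passenger complex, read 3428, 3652 and 3526 against 2786, 2791 and 2693 (-0.36 ± 0.07, limma adjusted p = 0.0153), with a gap between the genotypes wider than the range inside either. Plk4, which starts centriole duplication, differed by -0.13 ± 0.10 with overlapping groups, and Ttk, a checkpoint kinase, and Nek2, a centrosome kinase, were dim (-0.01 ± 0.07 and 0.00 ± 0.08).

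In the spindle assembly checkpoint, Bub1b and Mad2l1 fell and Bub3 and Bub1 did not pass. Bub1b, which codes for BUBR1, a subunit of the inhibitor of the APC/C, read 14963, 18426 and 17314 in wild type and 11247, 10407 and 10589 in knockout. Its log2 difference was -0.65 ± 0.09, or 1.57-fold (limma adjusted p = 0.00317), and it was called in 13 of 14 alternative analyses. Mad2l1, which codes for MAD2 of the same inhibitor, read 10291, 10469 and 10480 against 7832, 6936 and 7769 (-0.47 ± 0.08, limma adjusted p = 0.00635), with wild-type arrays almost level. Bub3, their binding partner, overlapped between genotypes (-0.15 ± 0.09, 95% interval -0.35 to 0.06). The kinase gene Bub1 was dim (0.06 ± 0.09).

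None of the 4 genes of the APC/C branch was called by limma, and 0 of them had an unadjusted p under 0.05. Of all genes 4.08% were called lower and 13.0% were lower at that unadjusted p, so 4 genes may hold none. Cdc20, the activator of the APC/C, read 20313, 20535 and 20862 in wild type and 18678, 18528 and 19504 in knockout (-0.12 ± 0.07, 95% interval -0.27 to 0.03). The groups were separate, but the gap was small. Pttg1, which codes for securin, had the highest difference of all members, 0.07 ± 0.13, from 1066, 1430 and 1159 to 1429, 1070 and 1324, with arrays of both genotypes intermingled. Espl1 (separase) differed by -0.14 ± 0.10, and Ube2c, a ubiquitin-conjugating enzyme of the APC/C, was dim (-0.15 ± 0.07).

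The chromosomal passenger complex carries Aurora B to centromeres and later to the cleavage plane. Its scaffold genes Birc5 (survivin) and Incenp were separate between genotypes and did not pass. Birc5 read 16367, 17232 and 17912 in wild type and 14928, 10829 and 12340 in knockout (-0.45 ± 0.11, limma adjusted p = 0.0512). The knockout arrays spread more widely than the wild-type arrays. Incenp went from 8309 ± 1277 to 6162 ± 904 (SD, n = 3 each; -0.43 ± 0.14, limma adjusted p = 0.111).

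Of 7 centromere and kinetochore genes, 2 were called lower, beside 4.08% of all genes. Both are of the NDC80 complex that grips microtubules. Ndc80 read 4664, 4673 and 4596 in wild type and 3278, 2928 and 3280 in knockout (-0.56 ± 0.07, 1.47-fold), with the smallest limma adjusted p of all members (0.0025). Wild-type arrays agreed within a narrow range, and all knockout arrays lay far below it. Spc25 read 3275, 2790 and 2486 against 2000, 2179 and 2041 (-0.45 ± 0.10, limma adjusted p = 0.0339). Neither fell at its second probe: Ndc80 differed there by 0.08 ± 0.11, near the dim mark, and Spc25 by 0.01 ± 0.11, above it. Ndc80 was called in 12 of 14 alternative analyses and Spc25 in 7. The other member of the NDC80 complex on the list, Nuf2, lay at the dim mark (993 ± 49.9 and 932 ± 45.7, SD, n = 3 each) and differed by -0.09 ± 0.08. Cenpa, the histone H3 variant that marks centromeres, read 48332, 53569 and 48908 against 42261, 39742 and 40918, a separate and narrow pair of groups (-0.29 ± 0.07) whose limma adjusted p was 0.0504. Cenpe, a kinetochore motor, Cenpf and Cenph differed by -0.09, -0.09 and -0.08, with overlapping groups.

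Kinesins, motor proteins that move along or shorten microtubules, held 4 lower calls among 7, beside 4.08% of all genes. Kif11 read 5637, 6038 and 6362 in wild type and 4169, 3274 and 3971 in knockout (-0.67 ± 0.10, limma adjusted p = 0.00502), the largest fall of any member. Kif22, a chromokinesin that pushes chromosome arms from the poles, read 18685, 22747 and 21965 against 15141, 13400 and 13402 (-0.59 ± 0.10, limma adjusted p = 0.00672). Kif4, a chromokinesin that also acts in the spindle midzone, read 5979, 5771 and 5693 against 4490, 4501 and 4358 (-0.39 ± 0.07, limma adjusted p = 0.0101). In all of these the groups were separate, most widely in relation to their spread in Kif4. Kif2c, which shortens microtubules at centromeres, went from 10477 ± 305 to 8107 ± 489 (-0.37 ± 0.08, limma adjusted p = 0.0193; SD, n = 3 each). Kif23, a kinesin of the central spindle, read 11762, 15486 and 15080 against 11030, 8117 and 11217 (-0.48 ± 0.15) and did not pass (limma adjusted p = 0.0963), its lowest wild-type array lying just above its highest knockout array. Kif20b differed by -0.44 ± 0.12 (limma adjusted p = 0.0645), and Kif20a was dim (-0.12 ± 0.09).

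Among spindle and cytokinesis genes, Prc1, which bundles microtubules of the central spindle, was called lower. It read 57254, 67471 and 60910 in wild type and 49867, 40226 and 43766 in knockout (-0.47 ± 0.10, limma adjusted p = 0.0228), without overlap. Nusap1, a microtubule-binding protein, differed by -0.44 ± 0.12 and Tpx2, the activator of Aurora A, by -0.19 ± 0.08, and neither passed (limma adjusted p = 0.0589 and 0.214). Stmn1, which destabilises microtubules, differed by -0.02 ± 0.08, and Hmmr was dim (0.05 ± 0.11). Anln, an actin-binding scaffold of the cleavage ring, read 29710, 29242 and 30391 against 26113, 23351 and 23418, and missed the threshold narrowly (-0.30 ± 0.07, limma adjusted p = 0.0511). Ect2, the activator of the small GTPase RhoA at the cell equator, and Racgap1, its partner, differed by -0.12 and -0.14 and overlapped between genotypes.

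Of 6 measured genes of chromosome structure, Top2a alone was called by limma, while 3 were lower at an unadjusted p under 0.05. The shares of all genes were 4.08% called lower and 13.0% lower at that unadjusted p. Top2a, the topoisomerase that untangles sister DNA, read 13523, 13888 and 15337 in wild type and 10603, 8639 and 9478 in knockout at its brightest probe (-0.58 ± 0.09, limma adjusted p = 0.00709), without overlap. The condensin I genes Ncapd2 and Ncaph, whose products compact mitotic chromosomes, were separate between genotypes and did not pass. Ncaph read 9361, 11085 and 11848 against 8376, 8147 and 8458 (-0.36 ± 0.09, limma adjusted p = 0.0554), and Ncapd2 differed by -0.47 ± 0.14 (limma adjusted p = 0.0863). Smc4 differed by -0.09 ± 0.08, and Smc2 and Ncapg were dim (-0.02 ± 0.08 and 0.06 ± 0.08).

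In all, 10 members had a limma adjusted p between 0.05 and 0.1. In each of the 10 all knockout arrays lay below all wild-type arrays, an order found in 14.0% of all genes. That order follows largely from a p of this size and is no separate support. The number of calls sat beside these genes, with differences of like size: Cenpa, Anln, Birc5, Foxm1, Ncaph, Cdc25b, Nusap1, Kif20b, Ncapd2 and Kif23.

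**Figure D3:**
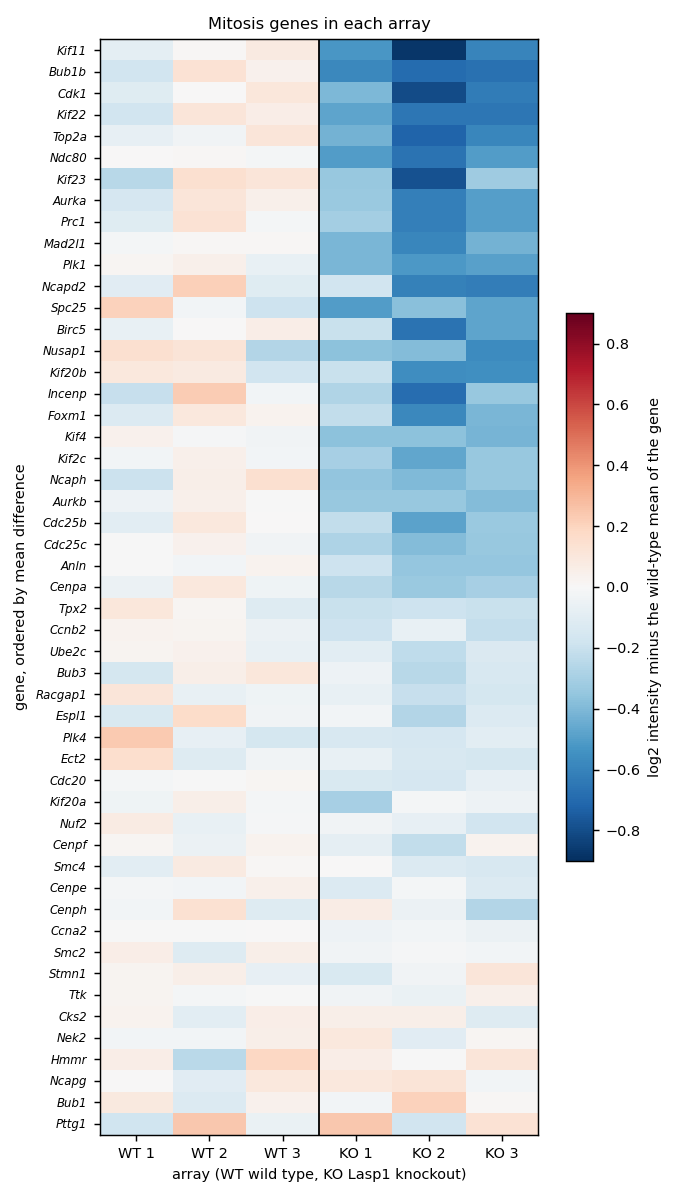
Log2 intensity of 51 mitosis genes (rows, ordered by mean difference) in 6 arrays (columns), minus the wild-type mean of the gene; blue is lower and red is higher. Upper rows are blue in all 3 knockout arrays, deepest in knockout replicate 2 for 32 of the 51 genes, and the lowest rows show no consistent colour.

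The depth of the fall varied among knockout arrays. Relative to the wild-type means, the median member lay at -0.20 in knockout replicate 1, -0.34 in knockout replicate 2 and -0.29 in knockout replicate 3. Knockout replicate 2 was the lowest of the knockout arrays for 32 of 51 members, knockout replicate 3 for 14 and knockout replicate 1 for 5. All bright genes shifted between arrays in a similar order: the median of the 11985 genes whose mean over all arrays exceeded the dim mark stood at 0.01, -0.10 and -0.09 in the same arrays. The median of the 36 members that passed that filter, less this shift, was -0.28, -0.34 and -0.28 in the knockout arrays and 0.01, -0.04 and 0.00 in the wild-type arrays. The upper quartile of all probes was 2041, 2330 and 2112 in wild type and 2283, 2018 and 2083 in knockout, and its part in the single-array differences was not tested.

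Where the probe was dim, little could be measured. Of the 51 members, 36 had a mean over all arrays above the dim mark and 15 did not, and differences ranged from -0.67 to 0.07 in the first set and from -0.16 to 0.06 in the second. The 15 were Ccnb2, Ccna2, Cks2, Ttk, Nek2, Bub1, Ube2c, Nuf2, Cenpe, Cenph, Kif20a, Hmmr, Racgap1, Smc2 and Ncapg. Limma called 0 of them, and 0 had an unadjusted p under 0.05. In 3 of them (Ccnb2, Ccna2 and Ube2c) every knockout array read below every wild-type array, an order found in 14.0% of all genes. Of the 2665 genes with that order, 2387 were among the 12577 above the dim mark in at least 1 genotype. The order was thus rarer than 14.0% among dim genes. How background was handled is not given, and its size was not measured here. If the deposited intensities hold background light of about the size of these signals, a fold at such a probe is understated. Levels of different genes cannot be ranked from probe brightness. With normexp background correction the median of all 51 members was -0.44 instead of -0.29.

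**Figure D4:**
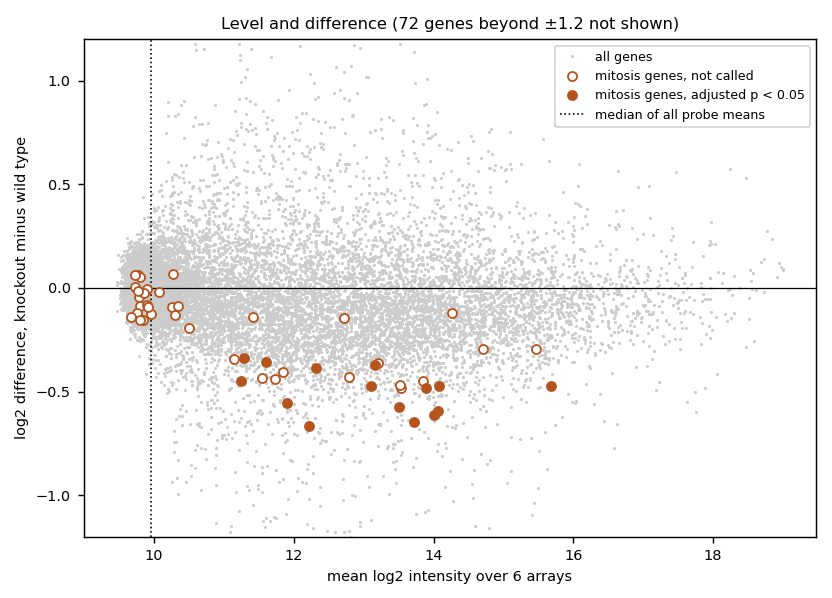
Mean log2 intensity over 6 arrays (horizontal) against the log2 difference, knockout minus wild type (vertical), for all genes in grey and 51 mitosis genes as circles, filled where limma's adjusted p was under 0.05; the dotted line is the dim mark, and 72 genes beyond 1.2 in either direction are not shown. The called mitosis genes lie between -0.34 and -0.67 over a wide span of brightness, and the genes at the dotted line lie near 0.

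Probes of 1 gene share the RNA and are no replicates, but the brightest probe alone defined each gene above, so the others give a reading that was not used to choose it. In all, 34 members had 2 or more probes, with 53 probes besides the brightest. Of these 53, 35 had the sign of the brightest probe, 7 were called lower and 0 higher in a limma fit over all 45281 probes, where 2.50% were called lower and 1.40% higher. Of the 25 whose mean over all arrays exceeded the dim mark, 22 had the sign of the brightest and the median log2 difference was -0.27, and of the other 28, 13 had it and the median was -0.01. Of the 15 called members 5 had 1 probe only, and 3 of the other 10 (Bub1b, Cdc25c and Kif4) had a further probe that was called lower.

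Further probes fell at several genes. The second Bub1b probe read 3560, 4232 and 3958 in wild type and 2852, 2427 and 2702 in knockout (-0.56 ± 0.09, limma adjusted p over all probes = 0.00936). A further Cdc25c probe differed by -0.40 ± 0.09 and a further Kif4 probe by -0.35 ± 0.08 (limma adjusted p over all probes = 0.0345 and 0.0417). These 3 genes went the same way at more than 1 probe. Birc5, Kif23 and Ncaph, which missed the threshold at their brightest probe, had other probes that passed: the Birc5 probes differed by -0.47 ± 0.07 and -0.50 ± 0.10 (limma adjusted p over all probes = 0.00914 and 0.0231), a Kif23 probe by -0.53 ± 0.11 (0.0302) and the second Ncaph probe by -0.36 ± 0.07 (0.0314). Cdc20, nearly level at its brightest probe, differed by -0.41 ± 0.11 and -0.27 ± 0.08 at others without passing (limma adjusted p over all probes = 0.0999 and 0.148).

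Other genes went differently from probe to probe. Top2a had a probe that read 1470, 2017 and 1407 in wild type and 2540, 2073 and 2016 in knockout, higher by 0.45 ± 0.14 without passing (limma adjusted p over all probes = 0.143), and another near the dim mark (0.05 ± 0.09). The mean over its 3 probes was -0.03 (limma adjusted p = 0.931, against 0.00025 to 0.102 in the other alternatives). The second Spc25 probe, at 1910 ± 306 and 1911 ± 54.9 (SD, n = 3 each), differed by 0.01 ± 0.11, and the second Ndc80 probe, near the dim mark, by 0.08 ± 0.11. At the second Mad2l1 probe the difference was -0.08 ± 0.10. The further probes of Cdk1, Prc1 and Kif11 lay near or under the dim mark and differed by -0.05, -0.04, 0.00 and 0.04, the first pair being of Cdk1. With the mean of all probes in place of the brightest, limma called 11 members lower, 8 of them among the 15.

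**Figure D5:**
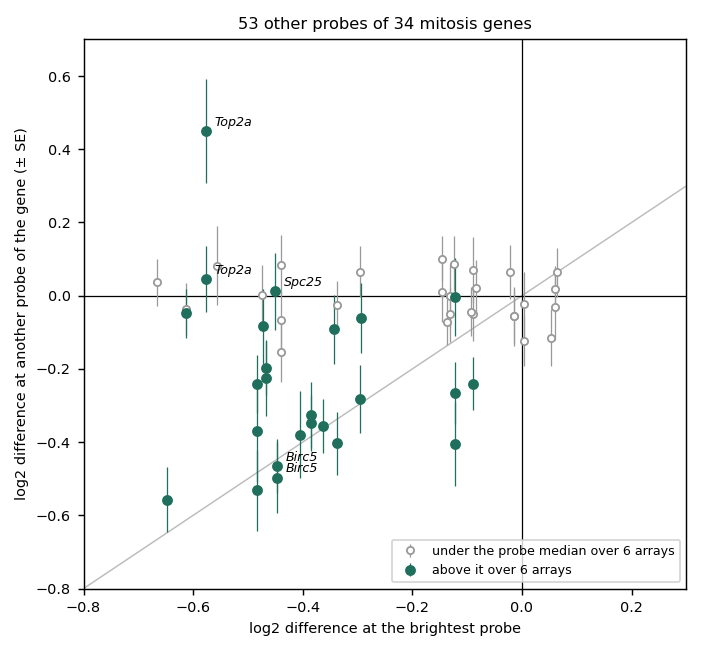
Log2 difference at the brightest probe of a gene (horizontal) against that at each of its other probes (vertical, with SE), for 53 probes of 34 mitosis genes; green points exceed the dim mark in their mean over all arrays, open points do not, and the grey line marks equal values. Of the green points 22 of 25 share the sign of the brightest probe, as do 13 of the 28 open points, which lie nearer 0.

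Genes of the same machinery outside the list, also drawn up with earlier results known, were counted in the same way. Among 104 measured genes of mitosis outside the list, 12 were called lower (11.5%, beside 4.08% of all genes) and 0 higher by limma (35 and 2 at an unadjusted p under 0.05), with a median of -0.10. Of the 104 differences 80 were negative and 24 positive, while 58.0% of all genes were negative. The 2 higher ones were Gtse1 (0.27 ± 0.09) and Zwint (0.27 ± 0.10), named after their values were seen. With quantile normalization 21 were called lower and 3 higher, and lower calls numbered 3 when wild type replicate 3 or knockout replicate 2 was left out and 2 when knockout replicate 3 was, shares near those of all genes (1.60%, 1.77% and 1.28%). Of 27 further kinetochore and centromere genes 5 fell, among them Kntc1 (-0.50 ± 0.08), part of the complex that brings checkpoint proteins to kinetochores, Cenpw (-0.41 ± 0.08) and Cenpn (-0.47 ± 0.09), which bind centromeric chromatin. Of 23 checkpoint, kinase and CDK control genes 5 fell, among them the kinase genes Pbk (-0.62 ± 0.08) and Haspin (-0.45 ± 0.08) and the checkpoint gene Mad1l1 (-0.39 ± 0.08). Of 16 cohesin and condensin II genes 2 fell, the cohesin acetyltransferase Esco2 (-0.63 ± 0.08) and Ncapg2 (-0.40 ± 0.10).

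Limma called 0 of 15 genes listed under the APC/C (0 at an unadjusted p under 0.05), most of them its subunits though Cdc34 is not, and their median was -0.08. It called 0 of 23 further spindle, kinesin and centrosome genes (6 lower and 0 higher at an unadjusted p under 0.05), with a median of -0.07. Of all genes 4.08% were called lower, a share at which lists of 15 and 23 genes may hold no call. At an unadjusted p under 0.05, 13.0% of all genes were lower by limma. Of 42 DNA replication genes, which are transcribed earlier in the cycle, 12 were called lower and 0 higher, and those of smallest p were the helicase subunits Mcm6 (-0.74 ± 0.08) and Mcm2 (-0.77 ± 0.10) and the ribonucleotide reductase subunit Rrm1 (-0.52 ± 0.07), with a list median of -0.25. Lower replication calls numbered 7 when wild type replicate 3 was left out, 6 for knockout replicate 2 and 5 for knockout replicate 3. The shares of all genes called lower were then 1.60%, 1.77% and 1.28%. The 12 are 28.6% of the replication genes, beside 29.4% of the mitosis genes and 4.08% of all genes. The lists were not tested against each other. In the 3 knockout arrays the median replication gene lay at -0.18, -0.32 and -0.29 from the wild-type mean, the order of arrays seen for the mitosis genes. The 11985 genes above the dim mark had that order too (0.01, -0.10 and -0.09), and this shift was not removed from the replication values.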

How the data were processed

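Total RNA of 3 wild-type and 3 Lasp1 knockout samples was made into biotinylated cRNA with an amplification kit, as the labels' protocols state. The deposited table holds intensity values of 45281 probes, linear, with a median of 1000 on every array. The sources used here do not give the scanner, the software or how background was handled. In the platform annotation 34885 probes had 1 gene symbol, 18 several and 10378 none, and of the Entrez identifiers 34807 were found in RefSeq (GRCm38.p6) with 0 symbols changed. The brightest probe over 6 arrays stood for each of 19057 genes. Log2 intensities entered a limma 3.58.1 model (R 4.3.3, eBayes defaults) with genotype as its term, 4 residual and 5.13 prior degrees of freedom, two-sided p and Benjamini-Hochberg adjustment over all genes, threshold 0.05. Arrays give no counts, and their number limits the precision.

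The fit was tested on simulated data with 19057 genes for this comparison. At a log2 change of 0.5 it called 55%, at 1 it called 94% and at 2 it called 100% of the altered genes, with 11 of 18857 unaltered genes. Members, lists, tests and alternatives were chosen with earlier results of these data known. Values in each array are given for the 10 members of smallest p, those with the highest and lowest difference, the 5 brightest, and those whose probes disagree in a call. Up to 3 called genes of smallest p are named per other list. Further members are named to complete the account of the list, and the Cdk1 and Ccnb2 promoters and the further probes described were chosen after values were seen.

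Alternatives were quantile normalization, normexp background correction (offset 50), subtraction of the 1st percentile with 64 added, a filter on dim genes, trend with robust estimation in eBayes (statmod 1.5.0), array weights, averaging of all probes, a replicate block, and omission of each array.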

Additional observations from a re-analysis of the deposited data

How the results depend on the processing

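Over 14 alternatives, 0 of the 15 called mitosis genes changed sign and 0 members were called higher. Bub1b and Kif11 were called in 13 of the 14, Ndc80 in 12, and Cdc25c in 6. Against 15 calls, members called lower numbered 3 with normexp background correction, 0 by limma with the 1st percentile subtracted and 64 added (28 at an unadjusted p under 0.05) and 25 with array weights, which ran from 0.517 (wild type replicate 2) to 3.47 (wild type replicate 3); leaving out each array gave 5 to 22. The median of the members, -0.29, was -0.19 with quantile normalization, -0.44 with normexp, -0.45 with the percentile subtracted, -0.40 for the 36 members above the median and -0.17 with the mean of all probes (-0.25 to -0.32 leaving out arrays).

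In the same order (normexp, percentile, array weights), other mitosis genes called lower numbered 2, 1 and 34 against 12, with 21 lower and 3 higher by quantile normalization (2 to 17 lower without 1 array), and DNA replication genes 4, 3 and 21 against 12 (5 to 15). All genes called lower numbered 316, 252 and 2282 against 778 (244 to 1217), and higher 222, 188 and 985 against 418 (207 to 729); quantile normalization gave 1083 lower and 1009 higher. Medians of the other mitosis genes were -0.17 with normexp, -0.17 with the percentile subtracted and -0.16 above the median, against -0.10 (-0.09 to -0.14 without 1 array), and of the replication genes -0.36, -0.36 and, with the mean of all probes, -0.17, against -0.25 (-0.23 to -0.30).

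Same-numbered arrays did not all deviate together (correlations -0.41, -0.34 and 0.22 over 11985 genes), while wild type replicate 1 with knockout replicate 2 gave 0.40 and wild type replicate 2 with knockout replicate 1 gave 0.47; the labels tie no arrays across genotypes, and no crossed pairing was fitted. With the replicate block limma called 3 members, 2 other mitosis genes and 5 replication genes lower, and 236 of all genes lower and 179 higher; of the wild-type arrays, number 3 alone correlated best with the knockout array of its own number. The cause of these changes was not tested, apart from the fewer arrays or genes in some. Dim probes limit what can be measured: 15 members had a mean over all arrays that did not exceed the dim mark. The promoter shares rest on the first listed window per gene; over all 47 member windows 83% held a CHR match, beside 28.8% of all windows.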
